A study of Danio rerio with 8 samples.

Results

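The genes examined here are the Fgf ligands that pattern the embryonic hindbrain and the tissue around it. They were chosen by name, as every gene ID whose symbol reads fgf3, fgf8a, fgf8b, fgf10a, fgf17, fgf18a, fgf19 or FGF20, with a capital symbol lacking the a or b ending also taken. This gave 11 gene IDs of 32189 in the count table, under 7 symbols. FGF8, FGF10, FGF18 and FGF20 stand for 2 IDs each, and the table of symbols does not say which is the a and which the b paralogue, so these are named by symbol and ID. Of the 11, 10 had enough counts to be tested. Each library came from a single micro-dissected hindbrain with adjacent tissue, taken from zebrafish of the Tg(hsp70:ca-fgfr1) strain at 24 to 25 hours post-fertilisation (hpf). The 4 ca_fgfr1 embryos carried a constitutively active form of the receptor Fgfr1 under a heat shock promoter, which is not restricted to the hindbrain. The 4 control embryos were recorded as wt. Both groups were reared at 28.5°C, heated to 38.5°C for 30 min from 22 hpf and returned to 28.5°C for 2 h, so the controls also carry the effects of heat. Carriers were heterozygotes from outcrosses and were told apart from controls of the same clutch by qPCR on the extracted RNA.

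Fgf ligands are secreted proteins that bind Fgf receptor tyrosine kinases together with heparan sulphate on the cell surface. Receptor activation signals through the Ras and MAP kinase cascade, raises transcription factors of the Pea3 group such as Etv4 and Etv5, and induces inhibitors of the same pathway, including Sprouty proteins and Dusp6. In the zebrafish hindbrain, Fgf8 and the related Fgf17 and Fgf18 are known from the midbrain-hindbrain boundary, Fgf3 and Fgf8 from rhombomere 4 and from otic induction, and Fgf20a from neurons at segment centres that hold nearby progenitors undifferentiated.

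Libraries held 13173019 to 20541155 counts, and a count of 3 corresponded to 0.143 to 0.281 CPM (counts as parts per 1e6 of the library, scaled with edgeR's TMM factors). The chi-square per degree of freedom between libraries of the same group was at least 25.6, so all were kept as separate replicates. Over all 18075 genes tested, edgeR gave 9 (0.0498%) at an adjusted p of 0.05 or less, all higher in ca_fgfr1. The study criteria, which set an adjusted p of 0.01 or less beside fold and level, were met by 3 (0.0166%). For the receptor itself, FGFR1 ENSDARG00000011027 stood at 17.7 to 23.1 CPM in ca_fgfr1 and 13.9 to 25.5 CPM in control libraries, and FGFR1 ENSDARG00000011190 at 6.28 to 18.4 CPM in ca_fgfr1 and 10.2 to 26.5 CPM in control libraries. The groups overlapped for both, and it is not known whether transgene reads map to one of them. Genes of the hindbrain list such as SOX3, hoxa2b and EGR2 were counted in every library, as were the 5 tested otic genes. Levels within these lists were uneven. In control replicate 1 the otic gene oc90 was at 10.96 CPM, against 135.8 to 195.2 CPM in the other controls. ELAVL3 of the hindbrain list was at 183.4 CPM there, against 660.8 to 796.4 CPM in the other controls. In ca_fgfr1 replicate 2 ELAVL3 was at 139.4 CPM, against 485.7 to 511.5 CPM in the other ca_fgfr1 libraries. Not all genes of the lists were low in control replicate 1, where SOX3 and hoxa2b were highest of the controls. Control replicate 1 had the lowest scaling factor (0.811, against 0.94 to 1.15), and ca_fgfr1 replicate 1 lacked a set of genes described further on. Where leaving one of them out moved a ligand's value by over 1.5 times, or turned its sign, the value without it is given.

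To ask which ligands respond when Fgf receptor signalling is switched on, the ligand transcripts were compared between ca_fgfr1 and control hindbrains. No ligand was called by the test. Of the 10 tested IDs, 0 passed an edgeR adjusted p of 0.05 (0.0498% of all genes tested did so). The study criteria were met by 0 (0.0166% of all genes), and 0 had an unadjusted p under 0.05 (5.34%). With shares this low, 0 of 10 IDs does not set the ligands apart from other genes. DESeq2 also gave 0 ligands at an adjusted p of 0.05, against 0.435% of the 20008 genes given an adjusted p. At an unadjusted p of 0.05 it gave 0 ligands and 1363 genes (as a count, 6.81% of those 20008 and 5.09% of the 26959 tested). For limma-voom, 0 ligands passed at both levels (0.0553% and 5.36% of all genes). By sign, 7 log2 fold changes were positive and 3 negative, with a median of 0.24. Over all 18075 genes tested, 8298 were positive, with a median of -0.04. The lean rested on single libraries. Without ca_fgfr1 replicate 4 the ligands were 3 positive and 7 negative (median -0.13, against -0.08 over all genes). Without ca_fgfr1 replicate 3 they were 5 and 5 (median 0.14), and without any other single library 6 or 7 were positive. One ID, FGF18 ENSDARG00000088048, lay below control in every ca_fgfr1 library, where 1.44% of all tested genes did so. Because the libraries are bulk tissue, fewer cells of a type and less RNA per cell cannot be told apart in any of these values. Levels are compared here within a gene only, since no transcript lengths of the authors' annotation were at hand.

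**Figure D1:**
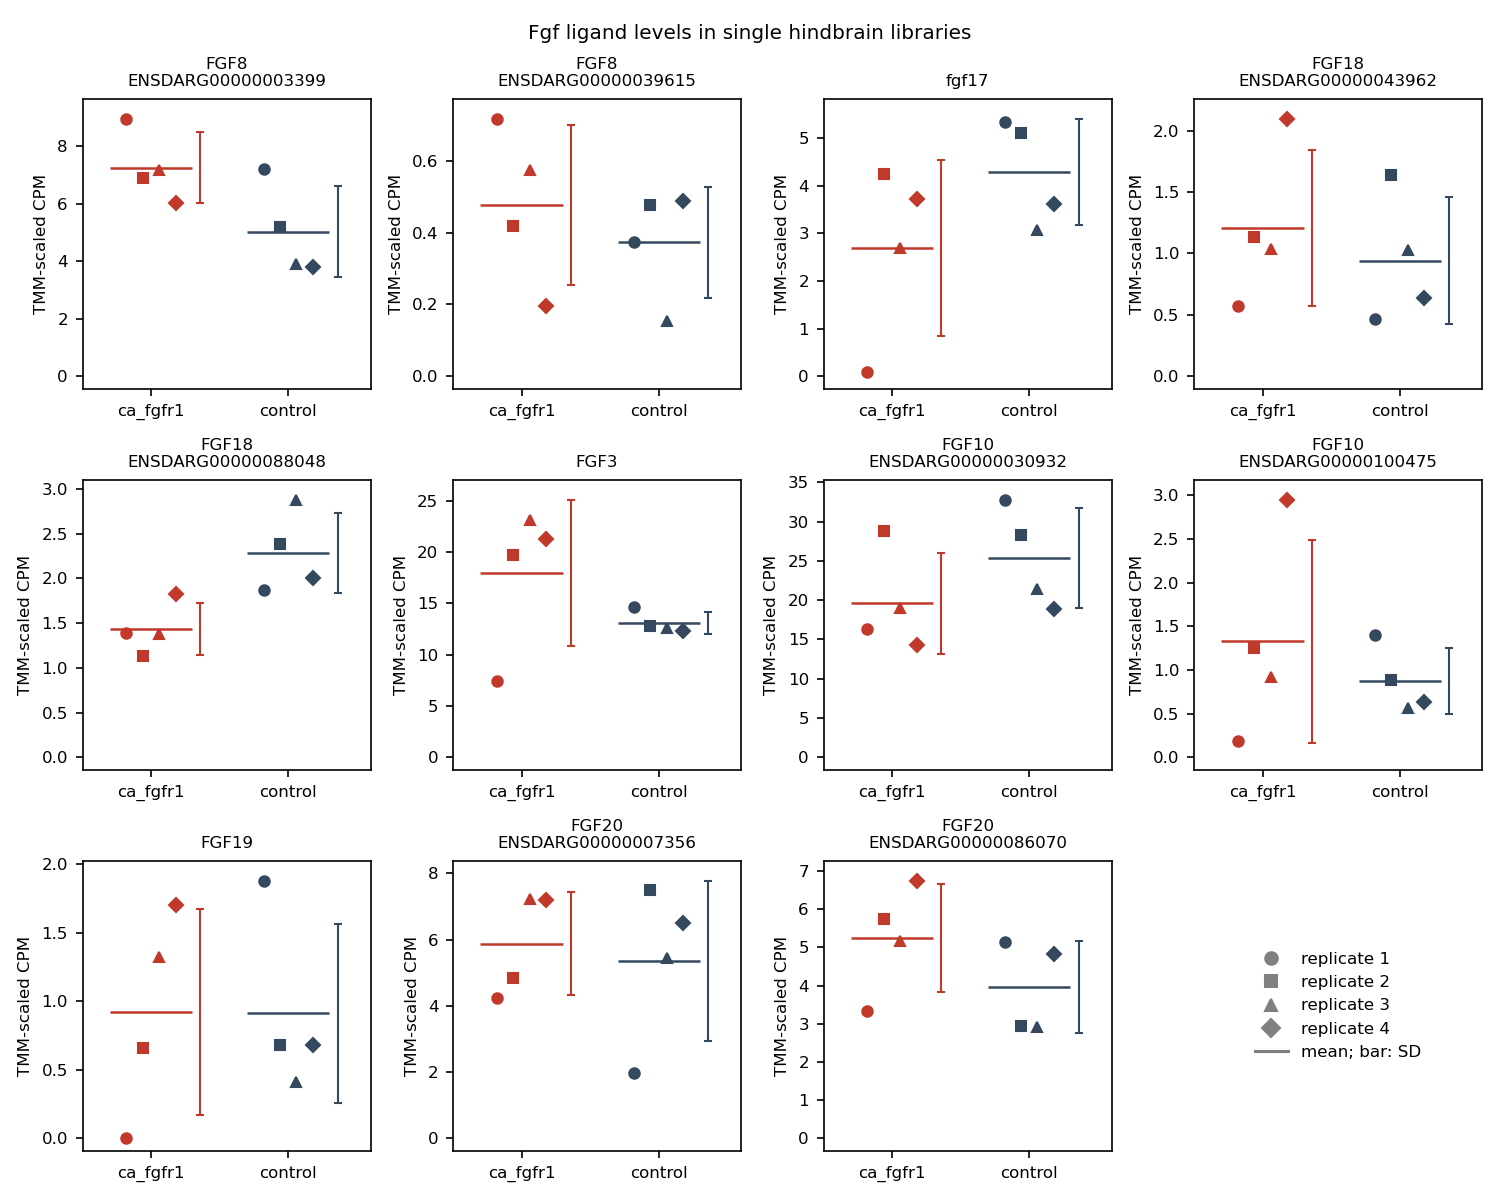
TMM-scaled CPM (vertical axis) of the 11 Fgf ligand IDs in the 4 ca_fgfr1 libraries (red) and the 4 control libraries (dark blue), with a marker shape per replicate number, a line at the group mean and a bar for the SD. The groups overlap in every panel except FGF18 ENSDARG00000088048, and ca_fgfr1 replicate 1 lies lowest of all libraries for fgf17, FGF3, FGF19 and FGF10 ENSDARG00000100475.

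FGF8 is the ligand of the midbrain-hindbrain boundary organiser. FGF8 ENSDARG00000003399 was at 8.92, 6.88, 7.18 and 6.01 CPM in ca_fgfr1 replicates 1 to 4, against 7.21, 5.18, 3.90 and 3.81 CPM in control replicates 1 to 4. The ca_fgfr1 libraries were all above control replicates 2, 3 and 4, and only control replicate 1 reached into their range. The means were 7.25 ± 1.22 CPM in ca_fgfr1 and 5.02 ± 1.59 CPM in control libraries (SD, n = 4 each), and the fitted log2 fold change was 0.54 ± 0.31 (SE), with a 95% interval of -0.14 to 1.21 and an edgeR adjusted p of 0.866. Without control replicate 1 the log2 fold change was 0.75 ± 0.28 (edgeR adjusted p = 0.148) and passed 0.05 before adjustment. In that setting 26.3% of all genes did so and 0.0703% passed after it. DESeq2 without that library, a setting chosen after seeing the data, gave 0.76 ± 0.30 (adjusted p = 0.071). There 19.5% of the 26839 genes tested passed 0.05 before adjustment, and 1423 genes passed after it. The 95% interval with all libraries leaves room for a rise of up to 2.31-fold, so a moderate increase was neither shown nor excluded with these replicates.

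FGF8 ENSDARG00000039615 was close to the limit of detection. It had 15, 7, 10 and 3 counts in ca_fgfr1 replicates 1 to 4, against 4, 7, 3 and 10 counts in control replicates 1 to 4. It did not pass the expression filter, and its mean of 0.476 CPM in ca_fgfr1 did not differ from 0.373 CPM in control libraries beyond the spread (exact two-sided permutation test, p = 0.486).

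Fgf17 and Fgf18 belong to the same subfamily as Fgf8. The gene fgf17 was at 0.0954, 4.25, 2.70 and 3.72 CPM in ca_fgfr1 replicates 1 to 4, against 5.34, 5.11, 3.08 and 3.61 CPM in control replicates 1 to 4. It was therefore counted in all libraries, but ca_fgfr1 replicate 1 held only 2 counts (exact 95% Poisson interval 0.0116 to 0.345 CPM, counting error only), while the lowest of the other libraries held 47 (interval 1.98 to 3.59 CPM). The log2 fold change was -0.67 ± 0.70 (95% interval -2.22 to 0.88, edgeR adjusted p = 0.908), and -0.26 ± 0.36 without ca_fgfr1 replicate 1. With limma-voom in place of edgeR it was -1.57 ± 0.92 (adjusted p = 0.859).

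FGF18 ENSDARG00000088048 was the one ligand whose groups did not overlap. It was at 1.38, 1.14, 1.38 and 1.83 CPM in ca_fgfr1 replicates 1 to 4, against 1.87, 2.39, 2.87 and 2.00 CPM in control replicates 1 to 4. The highest ca_fgfr1 library and the lowest control differed by little, at 1.83 and 1.87 CPM. The log2 fold change was -0.68 ± 0.35 (95% interval -1.44 to 0.09, edgeR adjusted p = 0.866), and it stayed negative, between -0.85 and -0.56, in all settings run. The other ID of the name, FGF18 ENSDARG00000043962, was at 0.573 to 2.09 CPM in ca_fgfr1 and 0.468 to 1.64 CPM in control libraries, and its fitted difference was 0.34 ± 0.53 on the log2 scale (edgeR adjusted p = 0.942). Its sign rested on ca_fgfr1 replicate 4, without which it was -0.090, and it was 0.58 without ca_fgfr1 replicate 1, 0.13 without control replicate 1 and 0.73 without control replicate 2.

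Fgf3 is known from rhombomere 4 and from pharyngeal tissue, and acts with Fgf8 in ear induction. FGF3 was at 7.44, 19.7, 23.1 and 21.3 CPM in ca_fgfr1 replicates 1 to 4, against 14.6, 12.8, 12.6 and 12.3 CPM in control replicates 1 to 4. In ca_fgfr1, replicates 2, 3 and 4 lay above every control and replicate 1 lay below every control. The means were 17.9 ± 7.11 CPM in ca_fgfr1 and 13.0 ± 1.07 CPM in the tightly grouped control libraries (SD), and the log2 fold change was 0.46 ± 0.33 (95% interval -0.27 to 1.18, edgeR adjusted p = 0.872).

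The value for FGF3 moved more without ca_fgfr1 replicate 1 than with another scaling or tool, but it depended on the other ca_fgfr1 libraries too. Leaving out ca_fgfr1 replicate 2, 3 or 4 lowered the log2 fold change of FGF3 to 0.39, 0.29 and 0.33 (edgeR). Without ca_fgfr1 replicate 1 its log2 fold change was 0.72 ± 0.23 (edgeR adjusted p = 0.748). It passed 0.05 before adjustment there, as did 6.6% of all genes, while 0.0271% passed after it. DESeq2 without that library gave an adjusted p of 0.256, with 0.462% of the 20980 genes given an adjusted p at 0.05. Before adjustment DESeq2 gave 1 ligand among 1662 genes at 0.05 there (as a count, 7.92% of those 20980 and 6.22% of the 26824 tested). With ca_fgfr1 replicate 1 and control replicate 1 both left out, a setting chosen after seeing the data, it was 0.74 ± 0.20 in edgeR (adjusted p = 0.0729) and 0.78 ± 0.24 in DESeq2 (adjusted p = 0.0162). Of the 16254 genes given an adjusted p by DESeq2 with both out, 18.1% passed 0.05, so this single ligand call stands among many. Before adjustment DESeq2 gave 1 ligand among 5536 genes at 0.05 (as a count, 34.1% of those 16254 and 20.8% of the 26689 tested). With both out, edgeR gave 0.0546% of all genes after and 29.5% before adjustment. With both libraries out no other ligand passed an adjusted p of 0.05 by either tool, and FGF10 ENSDARG00000100475 passed 0.05 before adjustment in edgeR.

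Fgf10 is a ligand of the Fgf7 group, known in the zebrafish otic region and fin bud. FGF10 ENSDARG00000030932 was at 16.3, 28.8, 19.0 and 14.2 CPM in ca_fgfr1 replicates 1 to 4, against 32.7, 28.4, 21.4 and 18.8 CPM in control replicates 1 to 4. The groups overlapped, and the log2 fold change was -0.37 ± 0.29 (edgeR adjusted p = 0.877), with a 95% interval that included no change and reached down to 0.499-fold. It was -0.63 ± 0.28 without ca_fgfr1 replicate 2 and passed 0.05 before but not after adjustment there, where 3.37% of all genes passed before adjustment. Without control replicate 1 it was -0.23 ± 0.27. FGF10 ENSDARG00000100475 ranged from 0.191 to 2.94 CPM in ca_fgfr1 and from 0.564 to 1.41 CPM in control libraries. Its lowest value was ca_fgfr1 replicate 1, with 4 counts, and its highest ca_fgfr1 replicate 4, with 45 (0.62 ± 0.68 on the log2 scale, edgeR adjusted p = 0.913, and -0.16 without ca_fgfr1 replicate 4). Without ca_fgfr1 replicate 1 it was 0.99 ± 0.55, and with control replicate 1 also left out 1.27 ± 0.55 (edgeR adjusted p = 0.762 and 0.161).

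Fgf19 is known in zebrafish from forebrain and eye development. FGF19 had 0, 11, 23 and 26 counts in ca_fgfr1 replicates 1 to 4, against 20, 10, 8 and 14 counts in control replicates 1 to 4. The 0 in ca_fgfr1 replicate 1 allows a level of up to 0.143 CPM by a floor of 3 counts (the exact 95% Poisson interval of the 0 ends at 0.176 CPM), and the other libraries ranged from 0.410 to 1.87 CPM. The log2 fold change of 0.04 ± 0.87 had an interval of -1.88 to 1.95 (edgeR adjusted p = 0.996), too wide to show a change of either sign. It was 0.47 ± 0.61 without ca_fgfr1 replicate 1, 0.61 ± 0.92 without control replicate 1 and 1.02 ± 0.52 without both (edgeR adjusted p = 0.924, 0.705 and 0.221).

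Fgf20 belongs to the Fgf9 group, and in zebrafish fgf20a is the ligand of the segment centres. FGF20 ENSDARG00000007356 was at 4.25, 4.84, 7.24 and 7.19 CPM in ca_fgfr1 replicates 1 to 4, against 1.97, 7.50, 5.44 and 6.49 CPM in control replicates 1 to 4. Control replicate 1 stood lowest, with 21 counts against 81 to 133 in the other libraries. The log2 fold change was 0.13 ± 0.40 (95% interval -0.76 to 1.02, edgeR adjusted p = 0.975), and it turned negative without control replicate 1 (-0.15) or without ca_fgfr1 replicate 3 or 4, and was 0.26 without ca_fgfr1 replicate 1. FGF20 ENSDARG00000086070 was at 3.34, 5.74, 5.17 and 6.73 CPM in ca_fgfr1 replicates 1 to 4, against 5.15, 2.93, 2.92 and 4.83 CPM in control replicates 1 to 4. Its log2 fold change was 0.41 ± 0.34 (95% interval -0.35 to 1.16, edgeR adjusted p = 0.884). In control replicate 1, which was low for the first ID, the second ID was the highest of the controls.

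**Figure D2:**
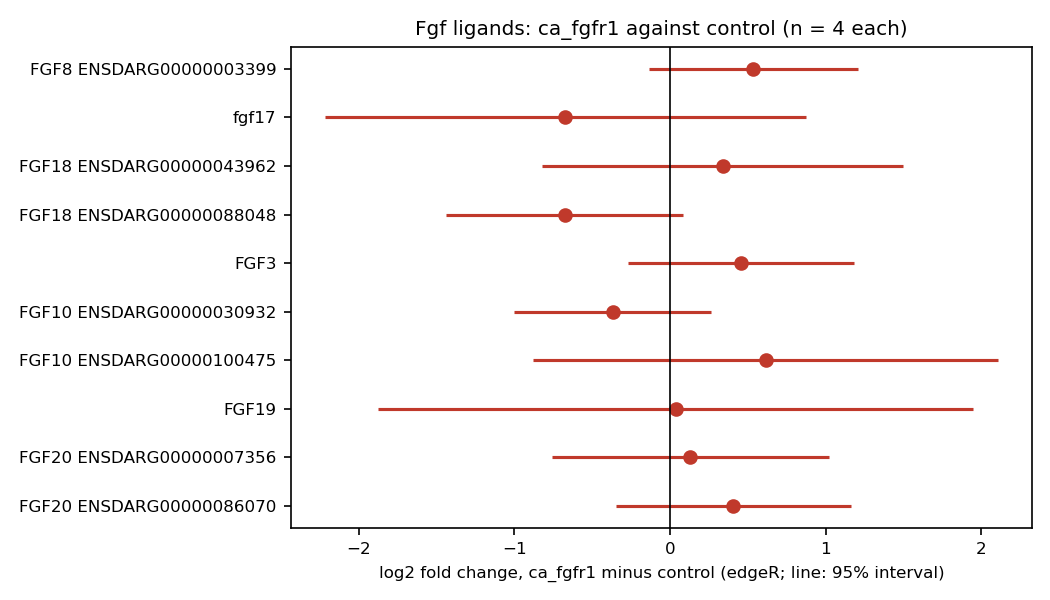
Log2 fold change of ca_fgfr1 minus control (horizontal axis) for the 10 tested Fgf ligand IDs, as points with 95% intervals from edgeR. Every interval spans 0, and the widest is that of FGF19 (-1.88 to 1.95).

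Several ligands were low together in ca_fgfr1 replicate 1. Across all tested genes, 69 (0.382%) lay more than 8-fold below every other library there, and these included 2 of the 10 ligand IDs, fgf17 and FGF19. No ligand was that low in any other library, although 174 genes (0.963%) were in control replicate 1. FGF19 is among the 69 genes of ca_fgfr1 replicate 1 at 0 counts, and against the floor of 3 counts it would not be. Among ligands outside the set, FGF4 was at 0.143 CPM in ca_fgfr1 replicate 1, against 3.39 to 4.77 CPM in the other ca_fgfr1 and 3.07 to 5.71 CPM in control libraries. The gene fgf24, a ligand of the Fgf8 subfamily, had 21 counts there, against 63 to 157 counts in the other ca_fgfr1 and 70 to 112 counts in control libraries, and was likewise lowest there in CPM. In the RefSeq gene table of the GRCz12tu assembly, fgf3, fgf4 and fgf19 are neighbouring protein-coding genes on one chromosome, and all 3 were lowest in this library.

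Genes of the pharyngeal region were low in the same library, though not these alone. The summed level of the 8 IDs of the head mesenchyme and pharyngeal arch list was 86.3 CPM in ca_fgfr1 replicate 1, against 322 to 464 CPM in the other ca_fgfr1 and 278 to 372 CPM in control libraries, and none of the 8 was at 0. From that list, NKX2-3, a homeobox gene of pharyngeal endoderm, was at 0.0954 CPM, against 15.1 to 22.0 CPM in the other ca_fgfr1 and 11.8 to 16.2 CPM in control libraries. Named after their values were seen, nkx2.7 was at 0.143 CPM (18.2 to 64.6 CPM elsewhere), HAND2, a factor of arch and heart precursors, at 0.334 CPM (17.3 to 91.1 CPM), and PAX9, a pharyngeal pouch factor, at 0.143 CPM (2.36 to 5.53 CPM). Also low, and named in the same way, were HOXB5 at 0 CPM (0.862 to 16.2 CPM elsewhere) and NKX2-5 at 0.0477 CPM (3.28 to 28.9 CPM). The receptor-like gene fgfrl1b was at 1.05 CPM, against 12.4 to 18.6 CPM in the other ca_fgfr1 and 15.1 to 23.3 CPM in control libraries. The summed midbrain-hindbrain boundary list was not low there (136 CPM, against 107 to 132 CPM in the other ca_fgfr1 and 76.3 to 141 CPM in control libraries). FGF8 ENSDARG00000003399 was not low either, and was highest there of all libraries. Single members of that list went different ways. WNT1, made on the midbrain side of the boundary, was at 37.8 CPM there, against at most 16.7 CPM in the other ca_fgfr1 and 21.4 CPM in control libraries. EN2 ENSDARG00000038868 was at 3.05 CPM there, against 9.21 to 11.2 CPM in the other ca_fgfr1 and 0.718 to 2.62 CPM in control libraries. The gene en1b was at 33.9 CPM, against 34.6 to 51.7 CPM in the other ca_fgfr1 and 15.6 to 38.2 CPM in control libraries. Of the 2 genes on the rhombomere 4 list, hoxb1b was at 2.67 CPM there, against 14.3 to 37.2 CPM in the other ca_fgfr1 and 15.3 to 68.2 CPM in control libraries. The other, hoxb1a, was not low, at 62.9 CPM, against 37.0 to 79.3 CPM in the other ca_fgfr1 and 51.1 to 100.6 CPM in control libraries. Where hoxb1b is expressed at this stage was not tested, so its value is not read as a measure of rhombomere 4. The part of tissue content in the low ligand values of this library was not tested.

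**Figure D3:**
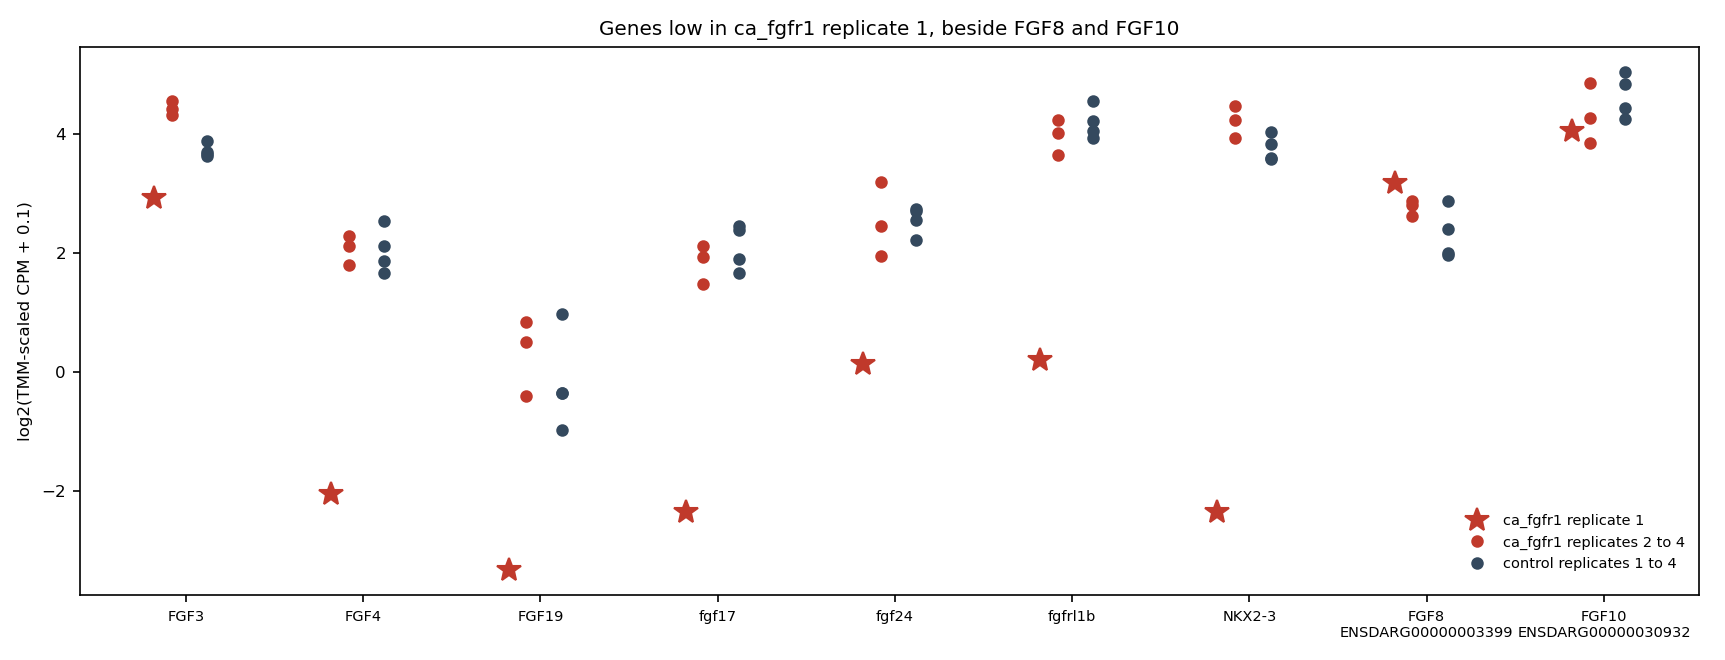
Log2 of TMM-scaled CPM plus the small offset named on the axis (vertical axis) for ligands, the receptor-like gene fgfrl1b and the pharyngeal gene NKX2-3. A star marks ca_fgfr1 replicate 1, red points mark ca_fgfr1 replicates 2 to 4 and dark blue points mark controls. The star lies below every other library for FGF3, FGF4, FGF19, fgf17, fgf24, fgfrl1b and NKX2-3, above every other library for FGF8 ENSDARG00000003399, and within them for FGF10 ENSDARG00000030932.

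The rest of the pathway was read from lists of ligands, receptors, extracellular modulators and targets. Of the other secreted ligands, 5 of 13 IDs were tested, of which 1 had a positive and 4 a negative log2 fold change, with 0 at an adjusted p of 0.05 and a median of -0.40. The positive one was fgf1b (0.93 ± 0.53, edgeR adjusted p = 0.866), at 0.334 to 1.67 CPM in ca_fgfr1 and 0.439 to 0.750 CPM in control libraries. The 8 untested IDs of that list had at most 12 counts in any library. FGF5, fgf7, fgf23 and 1 of the FGF6 IDs had at most 2.

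Of the intracellular Fgf-like genes, whose products are not secreted, 4 of 6 IDs were tested, 2 with positive and 2 with negative values, and 0 passed an adjusted p of 0.05.

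Receptors showed no common direction. All 7 IDs were tested, with 2 positive and 5 negative values, a median of -0.20, and 0 at an adjusted p of 0.05. The most positive was fgfr4, at 236 to 378 CPM in ca_fgfr1 and 99.0 to 249 CPM in control libraries (log2 fold change 0.86 ± 0.34, edgeR adjusted p = 0.866). The most negative was FGFR3, at 35.4 to 55.5 CPM in ca_fgfr1 and 46.9 to 106 CPM in control libraries (log2 fold change -0.89 ± 0.29, edgeR adjusted p = 0.866). Of the extracellular modulators, which include heparan sulphate enzymes, proteoglycans and Fgf-binding proteins, 20 IDs were tested, with 7 positive and 13 negative values, a median of -0.09 and 0 at an adjusted p of 0.05. One of them, fgfbp1b, which encodes a secreted Fgf-binding protein, lay above control in every library, as did 1.90% of all tested genes. The gene was at 39.6 to 82.2 CPM in ca_fgfr1 and 19.5 to 39.3 CPM in control libraries (log2 fold change 1.09 ± 0.30, edgeR adjusted p = 0.668). Its lowest ca_fgfr1 library and highest control were nearly level.

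Among the feedback and target genes, 1 rose by the edgeR test. DESeq2 values for this list are not given here. Of 14 tested, 12 had a positive log2 fold change, the median was 0.72, and 6 lay above control in every library (1.90% of all tested genes did so). Only 1 passed an adjusted p of 0.05 (0.0498% of all tested genes did so). That gene was SPRY2, a Sprouty inhibitor of receptor signalling, at 167, 160, 219 and 285 CPM in ca_fgfr1 replicates 1 to 4, against 50.3, 69.9, 62.6 and 61.2 CPM in control replicates 1 to 4 (log2 fold change 1.77 ± 0.25, edgeR adjusted p = 0.0408). All ca_fgfr1 libraries were above all controls, replicate 1 included. The others without overlap were SPRY1, SPRY4, DUSP6, ETV4 and etv5b, with log2 fold changes of 1.49 to 2.13 and edgeR adjusted p from 0.190 to 0.866. For SPRY1 the lowest ca_fgfr1 library and the highest control were level, at 3.41 CPM each. From DESeq2, the paper reports etv5b among the genes most induced in this comparison, and it shows ectopic etv5b by in situ hybridisation. The list was chosen with earlier results of these libraries known, so its direction here is not independent evidence. The difference between the ligand list and this list was not tested.

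**Figure D4:**
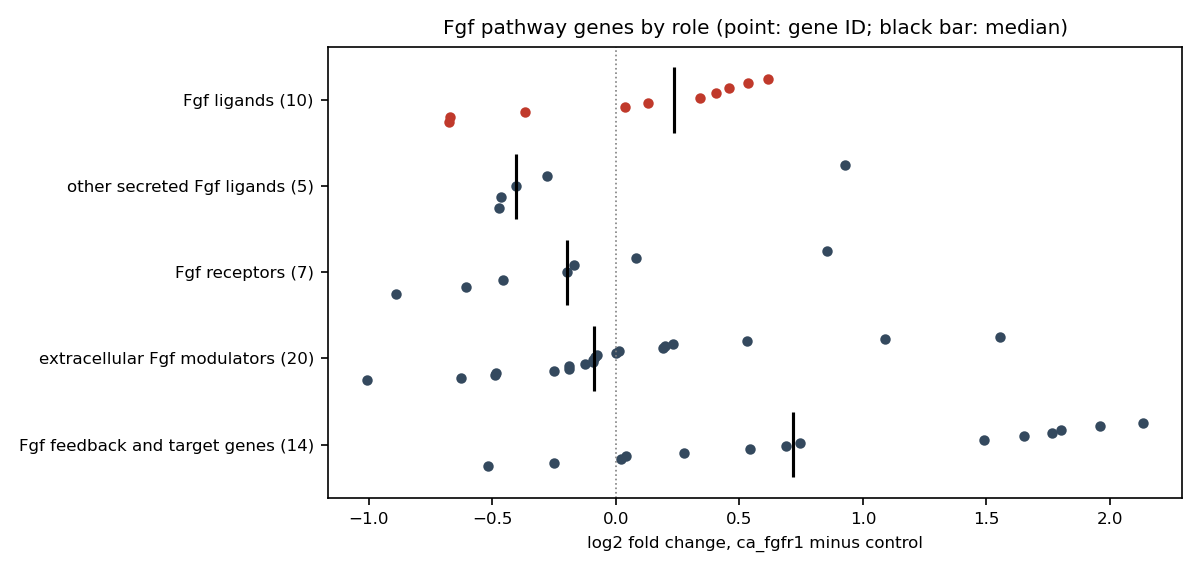
Log2 fold change of ca_fgfr1 minus control (horizontal axis) for each tested gene ID of 5 groups of Fgf pathway genes, ligands examined here in red and the others in dark blue, with a black bar at the median of each group. The ligands spread around a median of 0.24, the feedback and target genes around 0.72, and the 6 feedback genes without overlap between groups lie at 1.49 or above.

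Ligand sources were read through markers of the places that make them. At the midbrain-hindbrain boundary, where Fgf8, Fgf17 and Fgf18 are made, 7 of 10 IDs were tested, 4 with positive and 3 with negative values (median 0.08), and 0 passed an adjusted p of 0.05. EN2 ENSDARG00000038868, an Engrailed homeobox gene of the boundary and rhombomere 1, lay above control in every library, as did 1.90% of all tested genes. It was at 3.05, 11.2, 9.77 and 9.21 CPM in ca_fgfr1 replicates 1 to 4, against 2.62, 1.23, 0.718 and 1.12 CPM in control replicates 1 to 4 (log2 fold change 2.57 ± 0.51, edgeR adjusted p = 0.284). The untested EN2 ENSDARG00000026599 was at 0.382 to 0.588 CPM in ca_fgfr1 and 0 to 0.195 CPM in control libraries. For en1b, whose groups overlapped, the log2 fold change was 0.76 ± 0.32 (edgeR adjusted p = 0.866). CNPY1 of the target list, which promotes Fgf8 signalling at the boundary in zebrafish, averaged 22.4 ± 6.24 CPM in ca_fgfr1 and 18.6 ± 10.4 CPM in control libraries (log2 fold change 0.27 ± 0.37, edgeR adjusted p = 0.933). WNT1 had a log2 fold change of 0.08 ± 0.36. For rhombomere 4, known as a source of Fgf3 and Fgf8, the fitted difference of hoxb1a was -0.30 ± 0.31 on the log2 scale (edgeR adjusted p = 0.906). The other gene of that list, hoxb1b, was at -1.10 ± 0.66 (edgeR adjusted p = 0.866) and is not read as a measure of rhombomere 4. Whether rhombomere 4 makes these ligands at this stage was not tested. The otic list, with 5 IDs tested, had a median of -0.02 and 0 at an adjusted p of 0.05.

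The libraries also differed in other tissues. Summed epidermal markers ranged from 7350 to 14540 CPM in ca_fgfr1 and from 9084 to 26580 CPM in control libraries. Their minimum was in ca_fgfr1 replicate 1 and their maximum in control replicate 1. Blood markers ranged from 3.35 to 159.5 CPM in ca_fgfr1 and from 3.93 to 270 CPM in control libraries, and heart markers ranged from 0.334 to 26.7 CPM in ca_fgfr1 and from 0.410 to 1.03 CPM in 3 controls, with 435 CPM in control replicate 4. Muscle markers ranged from 17.9 to 82.9 CPM in ca_fgfr1 and from 6.56 to 30.4 CPM in 3 controls, with 622 CPM in control replicate 4, while the summed hindbrain neural list ranged from 1784 to 2321 CPM in ca_fgfr1 and from 1817 to 2425 CPM in control libraries. Among controls, replicate 4 was the lowest for FGF8 ENSDARG00000003399, FGF3 and FGF10 ENSDARG00000030932 and the highest for FGF8 ENSDARG00000039615. It lay between the others for the remaining 7 IDs. Without control replicate 4 the log2 fold changes were 0.42 for FGF8 ENSDARG00000003399, 0.42 for FGF3 and -0.50 for FGF10 ENSDARG00000030932. The part of these tissues in the ligand values was not tested.

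Likeness to other genes was described for the 3 ligand IDs with the highest mean CPM, by Pearson's r of log2 CPM over the 8 libraries, as a description with no test among 18075 genes. The genes most like FGF10 ENSDARG00000030932 were ENSDARG00000104964 (r = 0.984), ENSDARG00000102613 (0.967) and si:ch211-152l15.2 (0.967). Those most like FGF3 were PTPN9 (r = 0.978), them6 (0.965) and RPL6 (0.965), and those most like FGF8 ENSDARG00000003399 were MPDU1 (r = 0.978), DR1 (0.973) and CALCB (0.969). None of the 9 is an Fgf pathway gene of the lists.

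**Figure D5:**
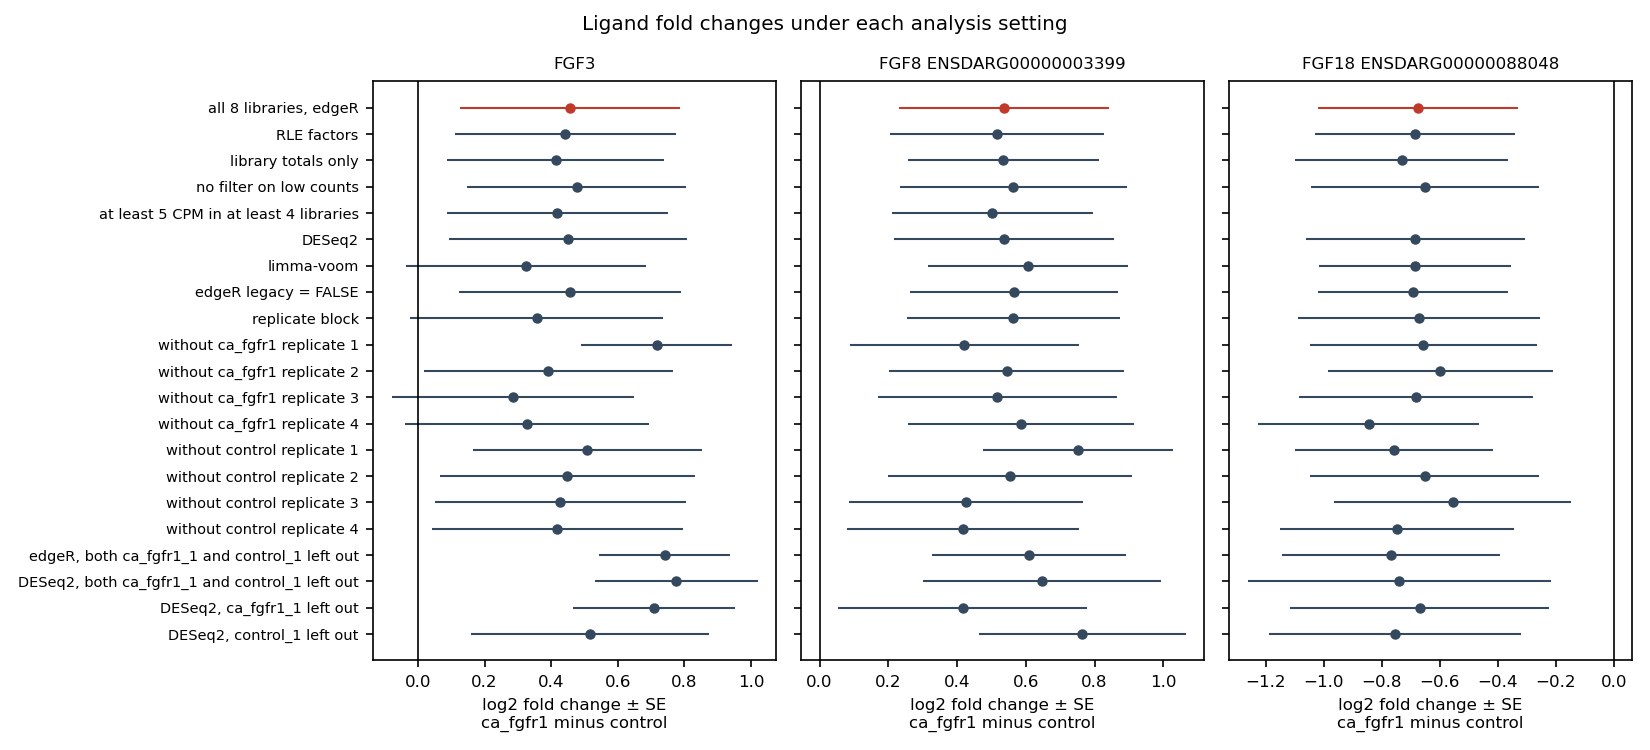
Log2 fold change of ca_fgfr1 minus control with its SE (horizontal axis) for FGF3, FGF8 ENSDARG00000003399 and FGF18 ENSDARG00000088048 under each analysis setting (rows; edgeR unless another tool is named), with the reported value in red. FGF3 lies between 0.29 and 0.78, FGF8 ENSDARG00000003399 between 0.42 and 0.76 and FGF18 ENSDARG00000088048 between -0.85 and -0.56, each keeping its sign.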

How the data were processed

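Per the methods and labels, the authors amplified cDNA of single hindbrains (SMARTer, Nextera XT), sequenced single-end reads, aligned them to GRCz10 with Ensembl transcripts by STAR 2.5.1b and estimated gene-level counts with RSEM 1.2.31. The deposited values are expected counts (estimated counts rounded to whole numbers by the authors, not scaled for depth). RSEM divides reads shared by paralogues, so values of IDs with one symbol are uncertain, and the use of strand was not given in the sources used here. Columns were matched to samples by reading C as control and F as ca_fgfr1.

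Symbols named 26350 of 32189 IDs. The main test was edgeR 4.0.16 under R 4.3.3 (filterByExpr, TMM, quasi-likelihood F-test at the defaults of this release, no covariates, 8 libraries), adjusted by Benjamini-Hochberg over 18075 genes. The study criteria were adjusted p up to 0.01, a change of 2-fold or more and a normalised count above 30 in every library of 1 group. FGF19, FGF18 ENSDARG00000043962 and FGF10 ENSDARG00000100475 fell short of that count in both groups. With the counts seen, they could therefore not meet the study criteria, whatever their adjusted p. SE values were derived from the F statistic. DESeq2 1.42.0 and limma 3.58.1 (voom), other scalings and filters, a replicate block and leaving out libraries were alternatives. The filtered ligand was tested by an exact permutation test over 70 splits. The fits were tested on simulated data. The paper took controls and carriers from a shared heat-shocked clutch, and the number of clutches over the 8 libraries was not given. The p-values measure the spread between these embryos. Members and lists were chosen with earlier results of these data known. Named genes were the ligands, any gene of the lists, and the 3 genes most like each of the 3 ligands of highest CPM. Outside this rule were the genes low in ca_fgfr1 replicate 1 that are marked above as named after their values were seen. Log2 CPM used a prior count of 2.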

Additional observations from a re-analysis of the deposited data

Results flagged for a closer look

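Each ligand was checked within each group of 4 libraries for a library set apart from the other 3, by Dixon's gap share with a critical value of 0.829 on log2 CPM. Of 22 such groups, 2 held one, where chance gives about 1 in 20, and both were ca_fgfr1 replicate 1. The gene fgf17 was at -2.23 log2 CPM there, and FGF3 was at 2.92 log2 CPM. On the linear CPM scale 0 of the 22 groups held one. The pharyngeal genes low in the same library are given with the ligands above.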

How the results depend on the processing

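Over 195 alternative values for the 10 tested ligands, 179 kept their sign and their side of an adjusted p of 0.05, 15 turned their sign, and 1 passed 0.05 (FGF3 at 0.78 in DESeq2 with ca_fgfr1 replicate 1 and control replicate 1 both left out, which made 1 ligand at an adjusted p of 0.05 against 0). No turned value passed the test. FGF19 turned to -0.92 with limma-voom and -0.060 with the replicate block, and ran from -0.47 to 0.61 without 1 library. FGF20 ENSDARG00000007356 ran from -0.15 to 0.33 without 1 library, and with both libraries left out it was -0.041 in edgeR and -0.0082 in DESeq2, and -0.14 in DESeq2 without control replicate 1. FGF18 ENSDARG00000043962 ran from -0.090 to 0.73 and FGF10 ENSDARG00000100475 from -0.16 to 0.99 without 1 library. The settings that leave out both libraries, or use DESeq2 without a library, were chosen after seeing the data.

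Over all genes, against 3 meeting the study criteria, edgeR gave 1 with relative log expression factors, 1 with library totals only, 6 with no filter on low counts, 5 when a gene needed 5 CPM or more in 4 libraries, and 6 with its newer quasi-likelihood method. It gave 0 to 1 without 1 library. limma-voom gave 6 and DESeq2 44, and DESeq2 gave 60 without ca_fgfr1 replicate 1, 141 without control replicate 1 and 728 without both. Against 9 genes at an adjusted p of 0.05, edgeR gave 14 with no filter and 1 to 13 without 1 library. DESeq2 gave 87, and 97, 1423 and 2940 without ca_fgfr1 replicate 1, without control replicate 1 and without both. The cause was not tested. Replicate numbers did not pair the libraries (correlations of deviations -0.29, -0.01, 0.22 and 0.19, with 2 of 8 libraries closest to their own number). With the replicate block, edgeR gave 0 genes by the study criteria (586 at an unadjusted p under 0.05) and 2 at an adjusted p of 0.05. The order of levels between ligands was not run, since no transcript or coding lengths were at hand. FGF19, fgf17, FGF8 ENSDARG00000039615 and FGF10 ENSDARG00000100475 had at most 4 counts in at least 1 library.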
